A study of Mus musculus with 62 samples.

Results

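The genes described here are 9 genes known from excitatory neurons of the pallium, the part of the forebrain that forms the cortex and hippocampus: *Slc17a7*, *Neurod1*, *Neurod2*, *Neurod6*, *Tbr1*, *Emx1*, *Fezf2*, *Rtn4rl2* and *Scube1*. They are 9 of the 56415 genes in the count table and were chosen by name, with their low values in ethanol libraries of the dorsal striatum (DS) and ventral striatum (VS) already known. The acute comparisons in DS and VS belong to that choice and are given as a description without a test. The chronic comparisons and those in the cortex, dorsal hippocampus (dHPC) and ventral hippocampus (vHPC) were tested. The choice did not set the chronic DS and VS libraries apart, so the p-values, FDRs and calls of members there are no independent support.

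Excitatory neurons of the pallium release glutamate, and *Slc17a7* encodes VGLUT1, the transporter that loads it into their synaptic vesicles. Their identity is set by a sequence of transcription factors that includes the homeodomain factor *Emx1*, the T-box factor *Tbr1*, the zinc finger factor *Fezf2* and the NEUROD family of basic helix-loop-helix factors. Most neurons of the striatum are instead GABAergic projection neurons of subpallial origin, which receive the axons of cortical excitatory neurons but do not use VGLUT1.

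The 62 libraries came from 16 male C57BL/6J mice aged 8 to 10 weeks and fall into 20 groups of 3 or 4 mice, defined by region, paradigm and treatment. Acute groups received 1 intraperitoneal injection and chronic groups 10 daily injections of saline or of 2 g/kg ethanol (20% in saline), and every mouse was killed 4 h after the last injection. No transgene or engineered allele is named for any group, and saline mice were injected on the same schedule as ethanol mice. Tissue was cored from slices of frozen brains, so each library is bulk tissue, in which fewer cells of a type and less RNA per cell cannot be told apart.

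Total counts per library were 43173748 to 61873358 in the cortex, 44391219 to 71164766 in dHPC, 11421520 to 16574721 in vHPC, 8149628 to 46564992 in DS and 10142093 to 20428676 in VS. The cortex and dHPC libraries were made with a non-directional kit and the vHPC, DS and VS libraries with a directional kit, so a difference between cortex and striatum cannot be told apart from that batch. The library of DS chronic saline replicate 2 is incomplete, since every gene of chromosomes 7, 8 and 9, of both sex chromosomes and of the mitochondrial genome is at 0 in it, as are those of chromosome 6 past position 23052915. *Slc17a7*, *Neurod6* and *Emx1* are therefore not measured in it, and it was left out of the main tests. The tissue labels were checked with 12 genes of striatal projection neurons, such as *Drd1*, *Drd2* and *Ppp1r1b*, whose summed level was 4061 to 12980 CPM (counts per 1e6 counts, scaled by TMM) in the complete DS and VS libraries, 559 to 704 CPM in the cortex, 425 to 4030 CPM in dHPC and 476 to 2288 CPM in vHPC. The highest hippocampal sums were those of chronic saline replicate 5 of dHPC (4030 CPM) and chronic ethanol replicate 5 of vHPC (2288 CPM).

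The promoters of the 9 genes were read because basic helix-loop-helix factors such as those of the NEUROD family bind E-boxes (CANNTG), and the 3 printed here belong to *Slc17a7* and to the NEUROD genes with the highest level in DS. Each line gives the 250 bases before the transcription start from RefSeq (GRCm38.p6), located by an exact match in GRCm39, 5′ to 3′ on the strand of the gene, with E-boxes in capitals.
*Neurod2*, chr11:98220472-98220721, minus strand: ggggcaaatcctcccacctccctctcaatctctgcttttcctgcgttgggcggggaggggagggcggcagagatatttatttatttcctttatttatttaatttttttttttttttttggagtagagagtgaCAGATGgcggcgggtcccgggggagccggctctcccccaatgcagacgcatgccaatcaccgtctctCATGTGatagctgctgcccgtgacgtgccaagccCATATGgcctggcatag
*Neurod6*, chr6:55658249-55658498, minus strand: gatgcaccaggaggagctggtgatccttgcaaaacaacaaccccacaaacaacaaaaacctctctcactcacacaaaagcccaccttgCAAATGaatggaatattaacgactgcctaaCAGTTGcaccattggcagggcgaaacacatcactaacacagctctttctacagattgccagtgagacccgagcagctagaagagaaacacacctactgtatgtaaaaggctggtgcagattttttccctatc
*Slc17a7*, chr7:44813095-44813344, plus strand: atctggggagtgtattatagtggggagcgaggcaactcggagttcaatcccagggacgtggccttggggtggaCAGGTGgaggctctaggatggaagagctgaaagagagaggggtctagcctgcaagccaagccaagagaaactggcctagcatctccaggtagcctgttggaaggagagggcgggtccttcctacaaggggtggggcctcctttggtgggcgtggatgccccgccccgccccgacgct
An E-box, which reads the same on both strands, was present in the 250-base window of 7 of the 9 members and in 66.2% of 32851 RefSeq promoters. The form CAGATG, which reads as CATCTG on the other strand and is contained in CANNTG, was found in 1 member, *Neurod2*, 118 bases before its start, and in 14.4% of all promoters. The T-box motif AGGTGTGA, searched on both strands, was found in 0 of the 9 windows and in 1.12% of all promoters. *Tbr1* alone held TAATTA, a core of homeodomain binding that was present in 4.84% of all promoters. The RefSeq starts of *Fezf2*, *Tbr1* and *Emx1* lie well inside the gene as annotated for the count table, so their windows are not upstream of the first counted base. That of *Neurod1* lies 114 bases inside, so its window is upstream of the first counted base only in part. GC content ran from 45.2% to 75.6% over the members, with a median of 61.2%, against a median of 52.4% over all promoters.

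Each member had at least 96 counts in every cortex, dHPC and vHPC library. Per kilobase of exon, the mean level in the 6 saline cortex libraries ran from 5.36 CPM for *Neurod1* to 246.3 CPM for *Slc17a7*, with *Neurod2* at 27.7, *Rtn4rl2* at 27.6 and *Neurod6* at 25.8 CPM per kilobase. *Emx1* (12.0), *Fezf2* (8.25) and *Scube1* (8.15) were at lower levels, and *Tbr1* was at 23.8 CPM per kilobase. The regions rank differently by gene. *Neurod6* averaged 63.5 ± 11.4 CPM in the cortex (SD, n = 12), 154.6 ± 26.6 CPM in dHPC (n = 13) and 157.2 ± 49.6 CPM in vHPC (n = 12), and *Neurod2* 85.9 ± 5.77, 159.5 ± 28.3 and 150.2 ± 30.2 CPM in the same order. These means and those that follow pool saline and ethanol libraries of both paradigms. For both NEUROD genes the 2 hippocampal regions, whose libraries were made with different kits, differed by less than their spread. *Tbr1* (125.8 ± 14.8 against 40.9 ± 5.69 CPM), *Emx1* (24.4 ± 3.59 against 12.4 ± 1.84 CPM) and *Scube1* (80.6 ± 8.59 against 20.7 ± 4.10 CPM) were higher in the cortex than in dHPC, which shares its library batch. *Fezf2* was alike in the cortex, dHPC and vHPC (27.8 ± 5.01, 25.7 ± 8.92 and 25.8 ± 9.82 CPM), the last of which was made with the other kit.

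In DS and VS the median level of the 9 genes was below that of every cortex library, and it was lowest in the ethanol groups. Each gene was expressed as a percent of its mean in the 6 saline cortex libraries, and the median of the 9 was taken in each library. In DS this median was 20.7, 19.1 and 25.2% in the acute saline libraries and 1.87, 5.10 and 1.22% in the acute ethanol libraries. It was 31.9 and 14.5% in the complete chronic saline libraries and 1.60, 7.16, 4.21 and 1.90% in the chronic ethanol libraries of DS. The incomplete chronic saline library of DS had a median of 21.4% over the 6 genes measured in it. In VS the median was 15.7, 24.0 and 36.1% after acute saline, 5.36, 0.936 and 2.25% after acute ethanol, 36.4, 5.17 and 17.8% after chronic saline and 0.756, 3.81 and 0.801% after chronic ethanol. The group means of the complete libraries were 21.7 and 23.2% with saline (acute and chronic) and 2.73 and 3.72% with ethanol in DS, and 25.3 and 19.8% against 2.85 and 1.79% in VS. Every saline median was above every ethanol median within DS. Within VS the chronic saline library of replicate 5 (5.17%) stood between the ethanol libraries, under the 5.36% of an acute ethanol library and above all chronic ethanol libraries. With the saline vHPC libraries as reference, which were made with the same kit as DS and VS (an alternative chosen after seeing the data), the group means of this median were 20.8% (acute saline), 2.14% (acute ethanol), 24.0% (chronic saline) and 3.93% (chronic ethanol) in DS, and 27.0, 3.02, 16.5 and 2.05% in VS.

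**Figure D1:**
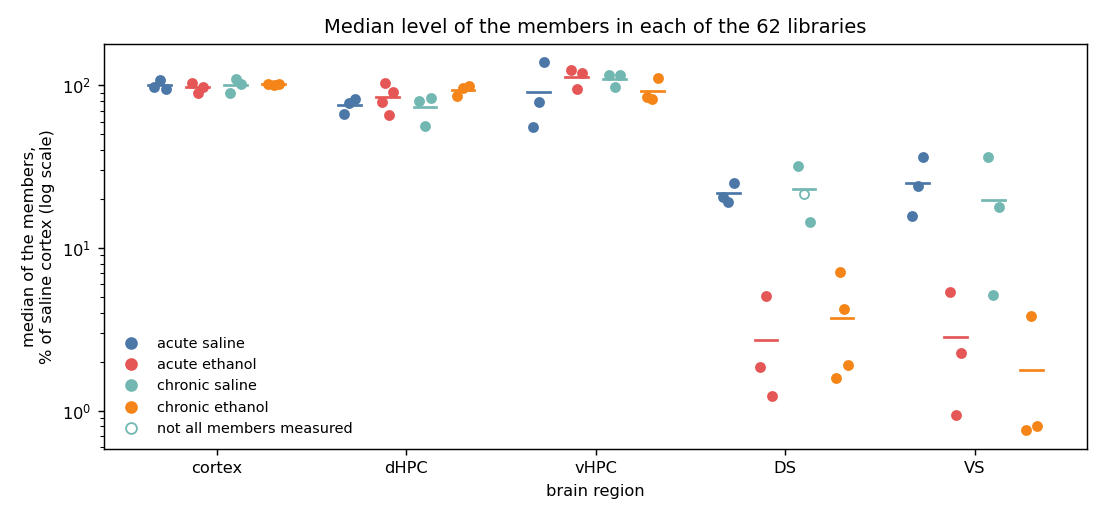
Median level of the 9 members in each of the 62 libraries, as a percent of the mean of the saline cortex libraries on a log axis, by region and group, where each point is a library each bar a group mean over libraries with all members measured, and the open point the incomplete library. Cortex and hippocampal libraries lie between 55.5 and 138.6%, the saline libraries of DS and VS between 5.17 and 36.4%, and their ethanol libraries between 0.756 and 7.16%.

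**Figure D2:**
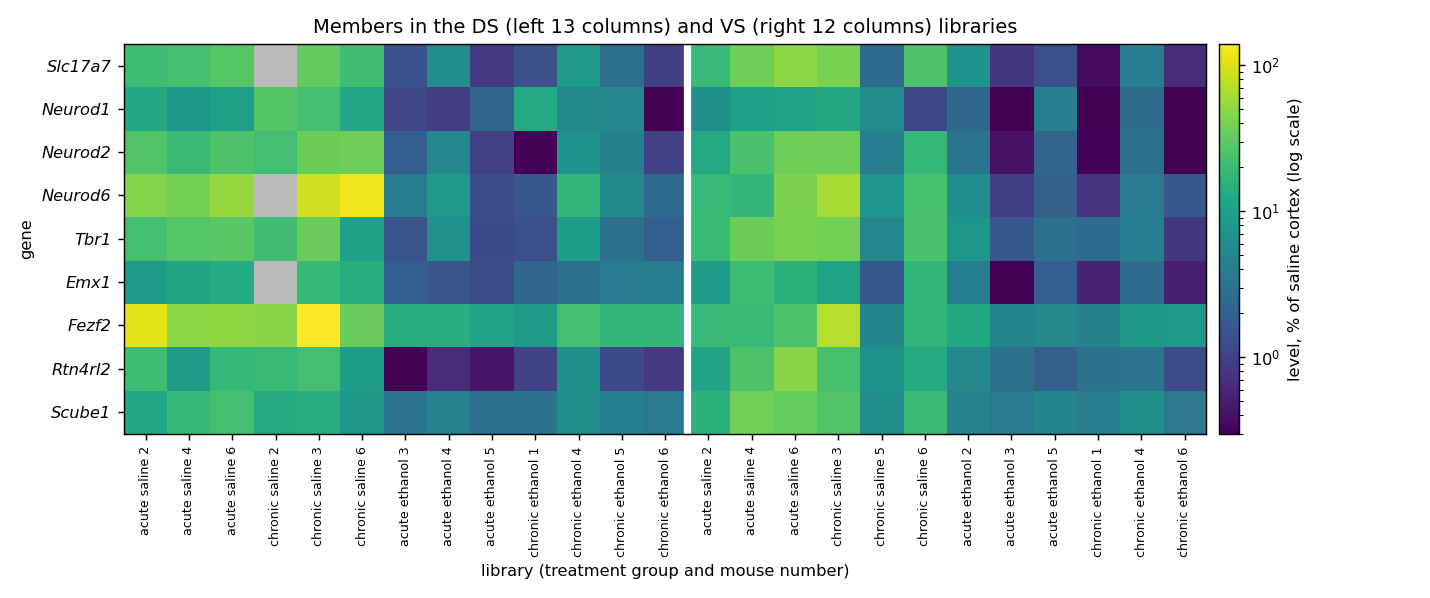
Level of each member (rows) in each DS and VS library (columns), as a percent of its mean in the saline cortex, on a log color scale on which values under 0.3% are drawn at 0.3% and genes that are not measured are gray. Saline columns are brighter than ethanol columns in nearly all rows, *Fezf2* and *Neurod6* are brightest in the saline DS columns, and chronic saline 5 of VS is dark among the saline columns.

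*Slc17a7* (ENSMUSG00000070570; chromosome 7, 44813373 to 44825566, GRCm39), the vesicular glutamate transporter, was the most abundant member. It was at 275, 306 and 366 CPM in the acute saline DS libraries and at 18.6, 80.4 and 11.4 CPM in the acute ethanol ones. After 10 injections it was at 424 and 284 CPM with saline and at 18.2, 113, 37.3 and 12.8 CPM with ethanol. Saline and ethanol libraries of DS did not overlap in either paradigm. In VS it was at 254, 476 and 655 CPM after acute saline against 94.9, 10.6 and 17.8 CPM after acute ethanol, and at 545, 34.1 and 335 CPM after chronic saline against 4.76, 55.1 and 8.76 CPM after chronic ethanol. The chronic VS groups overlapped through 1 saline library, replicate 5. Here and for the other genes, the range after an edgeR FDR spans all alternatives, among them DESeq2 adjusted p-values and edgeR without the low-count filter. Chronic ethanol gave a log2 fold change of -3.00 ± 0.68 (SE) in DS (edgeR FDR 0.370, 6.89e-08 to 0.814 over 10 alternatives) and of -3.71 ± 1.05 in VS (FDR 0.337, 1.62e-04 to 0.706), neither of which passed the threshold of 0.1.

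Among the NEUROD genes, whose factors act in the differentiation and maturation of excitatory neurons, *Neurod6* (ENSMUSG00000037984; chromosome 6, 55654807 to 55658248) had the highest level in saline DS. Its acute DS values were 24.7, 21.7 and 29.5 CPM with saline and 2.28, 4.71 and 0.685 CPM with ethanol, and its chronic values were 49.6 and 68.5 CPM with saline and 0.887, 9.65, 3.12 and 1.42 CPM with ethanol. The chronic saline values amount to 89.2 and 123% of the saline cortex. In VS it was at 10.8, 9.77 and 23.1 CPM against 3.34, 0.520 and 1.10 CPM in the acute groups and at 34.5, 4.21 and 13.0 CPM against 0.420, 2.12 and 0.915 CPM in the chronic groups. No saline library of a group overlapped with an ethanol library in either region or paradigm. The chronic log2 fold change was -4.05 ± 0.63 in DS (edgeR FDR 0.172, 3.79e-11 to 0.495 over the alternatives) and -3.84 ± 0.77 in VS (FDR 0.238, 1.30e-05 to 0.706). *Neurod6* overlaps *Gm3279* on the other strand, which was at 27.5 CPM in the cortex libraries, whose kit keeps no strand, and at 0.0888 CPM in DS.

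*Neurod2* (ENSMUSG00000038255; chromosome 11, 98216241 to 98220474) was at 22.8, 16.6 and 21.9 CPM in acute saline and 1.63, 4.44 and 0.868 CPM in acute ethanol DS libraries. Its chronic DS values were 30.8 and 31.6 CPM with saline, with 18.8 CPM in the incomplete library, and 0, 6.23, 3.87 and 0.887 CPM with ethanol. In VS the acute values were 11.2, 20.9 and 31.4 CPM against 2.78, 0.347 and 1.96 CPM, and the chronic values 31.7, 3.65 and 15.5 CPM against 0.280, 2.50 and 0.261 CPM. As with *Neurod6*, the groups did not overlap in any of the 4 comparisons. The chronic log2 fold change was -3.55 ± 0.81 in DS (edgeR FDR 0.370, 5.43e-07 to 0.814) and -3.94 ± 0.89 in VS (FDR 0.248, 3.05e-05 to 0.706). *Neurod1* (ENSMUSG00000034701; chromosome 2, 79282865 to 79287095) was the least abundant of the 3. It was at 1.17 to 1.81 CPM after acute saline and 0.135 to 0.320 CPM after acute ethanol in DS, where 2 of the 3 ethanol libraries had 2 counts. In acute VS it was at 0.945, 1.40 and 1.51 CPM with saline and 0.334, 0 and 0.612 CPM with ethanol. In the chronic DS groups its values overlapped, at 3.37 and 1.70 CPM with saline and 1.92, 0.804, 0.749 and 0 CPM with ethanol, and the log2 fold change was -1.53 ± 0.86 (edgeR FDR 0.726, 0.411 to 0.948). In chronic VS 2 of the 3 ethanol libraries had 0 counts of *Neurod1* and 1 saline library was at 0.164 CPM (log2 fold change -2.65 ± 1.17, edgeR FDR 0.498, 0.251 to 0.737). Its exons overlap those of *Cerkl* on the same strand, which was at 4.65 CPM in the cortex and 0.855 CPM in DS.

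*Tbr1* (ENSMUSG00000035033; chromosome 2, 61633274 to 61644458), which specifies neurons of the deep cortical layers, was at 28.9, 36.6 and 37.6 CPM in acute saline DS and at 1.96, 8.75 and 1.55 CPM in acute ethanol DS. The chronic DS values were 45.0 and 13.3 CPM with saline and 1.77, 12.4, 3.74 and 2.48 CPM with ethanol, so that the lowest saline and highest ethanol library nearly met. In VS it was at 26.1, 45.5 and 53.5 CPM against 10.0, 2.08 and 3.67 CPM in the acute groups and at 51.2, 6.74 and 31.4 CPM against 3.36, 5.39 and 1.05 CPM in the chronic groups. Its groups did not overlap in any of the 4 comparisons. The chronic log2 fold change was -2.58 ± 0.68 in DS (edgeR FDR 0.440, 1.24e-05 to 0.874) and -3.16 ± 0.71 in VS (FDR 0.242, 2.07e-05 to 0.706).

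*Emx1* (ENSMUSG00000033726; chromosome 6, 85164420 to 85181444), expressed through the dorsal pallium from early development, was at 2.21 to 3.41 CPM in acute saline and 0.320 to 0.489 CPM in acute ethanol DS libraries. It was at 4.84 and 3.79 CPM in chronic saline and at 0.591, 0.804, 0.998 and 1.06 CPM in chronic ethanol DS libraries, with no overlap. The chronic DS log2 fold change of *Emx1* had the smallest error after *Scube1* (-2.33 ± 0.37, edgeR FDR 0.172, 0.00244 to 0.814). In VS its acute values were 2.27, 5.41 and 4.07 CPM with saline and 1.11, 0 and 0.490 CPM with ethanol. Its chronic values in VS were 2.78, 0.421 and 4.61 CPM with saline and 0.140, 0.674 and 0.131 CPM with ethanol and overlapped (log2 fold change -2.92 ± 0.88, edgeR FDR 0.358, 0.0136 to 0.706).

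*Fezf2* (ENSMUSG00000021743; chromosome 14, 10121574 to 10127669), which directs the fate of subcortically projecting neurons of the deep layers, stood apart within striatal libraries. It was at 27.1, 12.3 and 12.8 CPM in acute saline DS, which is 108, 49.1 and 50.9% of the saline cortex, and at 3.58, 3.63 and 2.74 CPM in acute ethanol DS. In the chronic DS groups it was at 34.4 and 8.61 CPM with saline, 137 and 34.3% of the saline cortex, and at 2.22, 5.43, 4.37 and 4.26 CPM with ethanol. VS levels were lower, at 4.73, 4.88 and 6.11 CPM against 3.17, 1.21 and 1.35 CPM in the acute groups and 17.8, 1.26 and 4.19 CPM against 1.12, 2.02 and 2.09 CPM in the chronic groups, which overlapped. *Fezf2* had the highest percent of the members in 17 of the 25 striatal libraries. The chronic log2 fold change was -2.44 ± 0.48 in DS (edgeR FDR 0.346, 1.74e-06 to 0.824) and -2.16 ± 0.78 in VS (FDR 0.419, 0.0145 to 0.812).

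*Rtn4rl2* (ENSMUSG00000050896; chromosome 2, 84702268 to 84717054) encodes a receptor of the Nogo receptor family at the neuronal surface. It was at 8.53, 3.75 and 7.70 CPM in acute saline DS and at 0, 0.269 and 0.183 CPM in acute ethanol DS, from 0, 4 and 8 counts, and the ratio of the group means (44.2) was the highest of the members. Chronic DS values were 9.17 and 3.79 CPM with saline and 0.444, 2.71, 0.499 and 0.355 CPM with ethanol, a ratio of 6.46. In VS it was at 4.54, 10.4 and 19.7 CPM against 2.23, 1.21 and 0.796 CPM in the acute groups and at 9.80, 2.88 and 5.51 CPM against 1.26, 1.40 and 0.523 CPM in the chronic groups. The groups of *Rtn4rl2* did not overlap in any of the 4 comparisons. Its chronic log2 fold change was -2.78 ± 0.73 in DS (edgeR FDR 0.440, 6.98e-04 to 0.848) and -2.50 ± 0.51 in VS (FDR 0.238, 4.40e-04 to 0.706).

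*Scube1* (ENSMUSG00000016763; chromosome 15, 83489200 to 83609222) encodes a secreted and membrane-associated glycoprotein with EGF-like and CUB domains. It was at 9.64, 14.6 and 18.2 CPM against 2.61, 3.63 and 2.28 CPM in the acute DS groups, and at 11.6 and 6.25 CPM against 2.37, 5.02, 3.37 and 2.84 CPM in the chronic DS groups. In VS it was at 12.6, 30.0 and 26.5 CPM against 3.67, 2.95 and 3.92 CPM after 1 injection and at 20.9, 5.06 and 15.9 CPM against 3.22, 5.10 and 2.75 CPM after 10 injections, where 1 saline library lay just under the highest ethanol library. Its ratios of group means were 4.98 and 2.62 in DS and 6.55 and 3.78 in VS, acute and chronic. The chronic log2 fold change of *Scube1* was -1.43 ± 0.35 in DS (edgeR FDR 0.422, 0.0127 to 0.848) and -1.91 ± 0.47 in VS (FDR 0.301, 5.37e-04 to 0.706).

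Over the 9 genes, the ratio of the saline to the ethanol mean ran from 4.98 to 44.2 in acute DS (median 8.41), 2.62 to 15.7 in chronic DS (5.73), 2.74 to 12.5 in acute VS (7.94) and 3.78 to 16.7 in chronic VS (8.27). Every saline library was above every ethanol library for 9 of 9 members in acute DS, where this held for 8.25% of all genes tested, and for 9 of 9 in acute VS, against 6.08%. Both values describe the comparisons on which the members were picked, and the chronic DS and VS libraries were not set apart from that choice. In the chronic paradigm it held for 8 of 9 members in DS, all but *Neurod1*, against 7.66% of all genes, and for 4 of 9 in VS (*Neurod2*, *Neurod6*, *Tbr1* and *Rtn4rl2*) against 7.47%. For the 5 other members in VS, the overlap came from chronic saline replicate 5 or, for *Neurod1*, from replicate 6. In chronic VS *Neurod1*, *Neurod2* and *Emx1* passed the low-count filter through the saline group alone.

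With chronic ethanol the mean levels of all 9 genes were lower in DS and in VS, and no member passed the edgeR threshold. These libraries were not set apart from the choice of the members, so counts of members in them are no independent test. In chronic DS the median log2 fold change of the members was -2.58 (-4.05 to -1.43) against -0.0026 over the 19844 genes tested. edgeR called 0 of the 9 members and 0% of all genes at an FDR under 0.1, with 8 members and 7.53% of all genes at an unadjusted p under 0.05. DESeq2 called 5 (*Neurod6*, *Emx1*, *Fezf2*, *Rtn4rl2* and *Scube1*), where it called 0.776% of all genes. Without the low-count filter edgeR called 8 members and 1.6% of all genes, and with all 4 DS groups in 1 fit it called 4 members (*Neurod2*, *Neurod6*, *Emx1* and *Fezf2*) and 0.556% of all genes. The number of calls in chronic DS thus differed with the tool and the filter, and 2 complete saline libraries entered the fit. With the incomplete saline library added, on the chromosomes complete in it, edgeR called 0 of the 6 members measured there. The share of all genes called in that run is not given here. Leaving out chronic ethanol replicate 4 gave 2 called members (*Slc17a7* and *Neurod6*) and 0.0306% of all genes, and leaving out chronic saline replicate 6 gave 1 (*Fezf2*) and 0.0357%.

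In chronic VS the median log2 fold change of the members was -2.92 (-3.94 to -1.91) against -0.0068 over 20331 genes. edgeR called 0 of the 9 and 0% of all genes, with all 9 members and 9.95% of all genes at an unadjusted p under 0.05, and DESeq2 called 5 of the 7 members to which it gave an adjusted p (*Neurod2*, *Neurod6*, *Tbr1*, *Rtn4rl2* and *Scube1*) and 1.79% of all genes. *Neurod1*, *Neurod2* and *Emx1* passed the low-count filter in chronic VS through the saline group alone, where they are higher. Their part in these counts of members rests on that filter. Without chronic saline replicate 5 edgeR called all 8 members that passed the low-count filter (*Neurod1* did not) and 3.08% of all genes, and without the low-count filter it called 8 members and 1.88% of all genes. In the acute comparisons, on which the members were chosen, edgeR called 5.15% of all genes in DS and 0.0399% in VS, and no calls are given for the members. Whether the acute and the chronic changes differ was not tested.

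**Figure D3:**
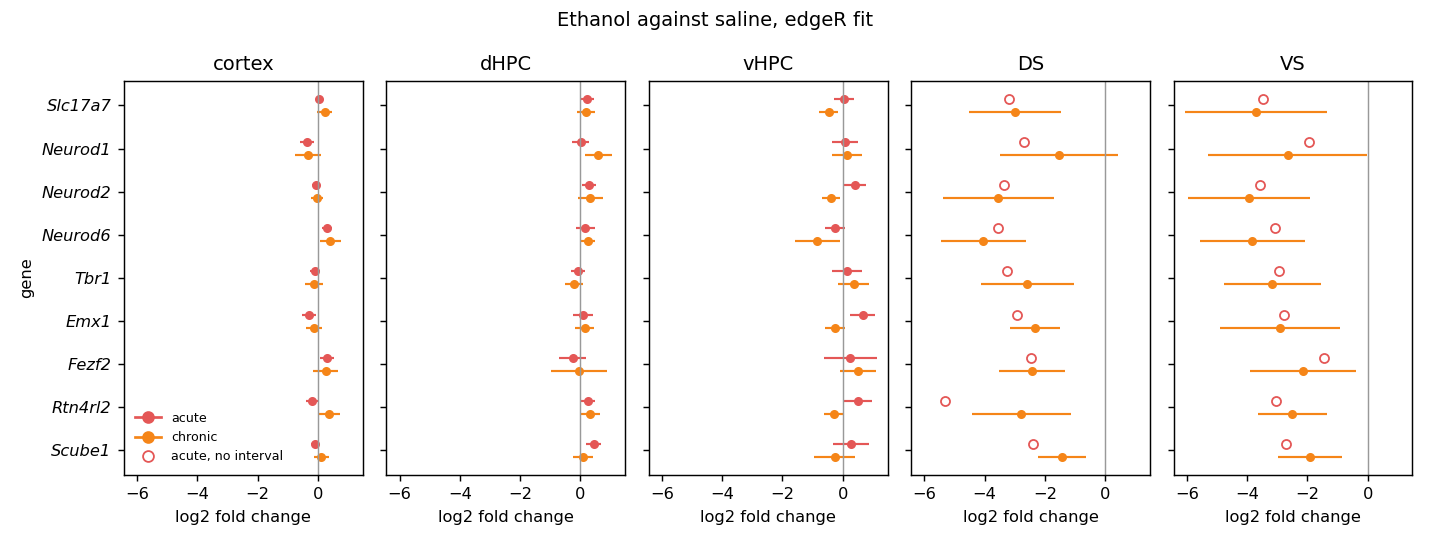
Log2 fold change of ethanol against saline for each member in the 5 regions, from edgeR, with 95% confidence intervals as lines for the tested comparisons, and with open points and no interval for the acute DS and VS comparisons on which the members were chosen. In DS and VS all points lie between -5.31 and -1.43, and in the cortex, dHPC and vHPC between -0.84 and 0.66.

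Within the cortex and hippocampus, 1 member passed the edgeR threshold over the 6 comparisons, and the log2 fold changes lay on both sides of 0. In the acute cortex *Neurod6* was the member that passed the edgeR threshold, and it rose from 52.8, 56.2 and 59.7 CPM to 76.6, 63.2 and 68.1 CPM (log2 fold change 0.31 ± 0.08, FDR 0.0810, 0.00113 to 0.661 over 11 alternatives). edgeR called 1.99% of all genes there, so 1 call among 9 members is to be read against that share, and 12.5% of all genes had an unadjusted p under 0.05. Its call was lost in 5 of 6 fits that each omitted a single library, and its direction was kept in all of them. *Neurod1* (13.6, 16.8 and 14.0 against 11.1, 10.3 and 13.0 CPM) and *Fezf2* (20.6, 27.6 and 25.5 against 28.2, 28.4 and 33.9 CPM) had FDRs of 0.157 (0.0128 to 0.686) and 0.235 (0.0192 to 0.766). DESeq2 called *Neurod1* and *Neurod6*, with 3.69% of all genes. The fit with a replicate block called 3 members (*Neurod1*, *Neurod6* and *Emx1*) and 3.05% of all genes, and edgeR without the low-count filter 4 members and 3.96%. *Gm3279*, which shares exonic bases with *Neurod6*, cannot be separated from it in these libraries. In the chronic cortex edgeR called 0% of all genes and 0 members, 2 of which had an unadjusted p under 0.05 beside 10.4% of all genes. DESeq2 called 0 members and 0.608% of all genes, and the members ran from -0.31 to 0.42 (log2).

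In dHPC the acute log2 fold changes ran from -0.25 to 0.45, with *Scube1* highest, from 16.7, 17.1 and 21.6 CPM with saline to 22.3, 27.4, 22.7 and 28.2 CPM with ethanol. Its FDR was 0.316 in edgeR (0.0293 to 0.902 over 12 alternatives), and edgeR called 0 members there, and 0.042% of all genes. An unadjusted p under 0.05 was found for 4 members and 7.88% of all genes. DESeq2 called *Scube1*, with 1.07% of all genes. In chronic dHPC (-0.22 to 0.60) edgeR called 0% of all genes and 0 members, with 2 members and 8.23% of all genes at an unadjusted p under 0.05, and DESeq2 called 0 members and 0.859% of all genes. *Neurod1* was highest there, at 22.7, 12.8 and 20.0 CPM with saline and 27.0, 24.6 and 33.4 CPM with ethanol (log2 fold change 0.60, edgeR FDR 0.566). Its lowest value came from saline replicate 5, the dHPC library with the highest sum of striatal genes, and without that library the log2 fold change was 0.40 (edgeR FDR 0.977). Whether that sum has a part in the value of *Neurod1* was not tested.

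In vHPC the acute and chronic values of several members lay on opposite sides of 0. The acute log2 fold changes ran from -0.25 to 0.66, with *Emx1* highest, at 6.40, 8.07 and 7.79 CPM with saline and 11.3, 10.5 and 13.8 CPM with ethanol (edgeR FDR 0.252, 0.0801 to 0.682 over 10 alternatives). edgeR called 0 members and 0% of all genes, with 3 members and 11.9% of all genes at an unadjusted p under 0.05, and DESeq2 called *Emx1* and 2.9% of all genes. The chronic log2 fold changes ran from -0.84 to 0.52. *Neurod6* was lowest, at 187, 211 and 218 CPM with saline and 201, 58.8 and 88.2 CPM with ethanol, followed by *Slc17a7*, at 1599, 1670.0 and 2032 CPM with saline and 1561, 1090.6 and 1218 CPM with ethanol. In both genes chronic ethanol replicate 4 was closest to the saline libraries and replicate 5, with the highest sum of striatal genes in vHPC, was lowest. Without replicate 5 the log2 fold changes were -0.52 for *Neurod6* and -0.36 for *Slc17a7*, against -0.84 and -0.47 with it. Whether its sum of striatal genes has a part in these values was not tested. edgeR called 0 members in chronic vHPC (FDR 0.491 for *Neurod6* and 0.399 for *Slc17a7*), and 0.0555% of all genes, with 3 members and 9.51% of all genes at an unadjusted p under 0.05, and DESeq2 called 0 members and 1.08% of all genes. Without ethanol replicate 4 edgeR called *Neurod6* and *Slc17a7* and 1.87% of all genes, and without the low-count filter 4 members (*Slc17a7*, *Neurod2*, *Neurod6* and *Fezf2*) and 2.66%.

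The members varied together over the 24 complete DS and VS libraries. Pearson's r of log2(CPM + 0.1) ran from 0.57 (*Fezf2* with *Rtn4rl2*) to 0.96 (*Slc17a7* with *Tbr1*) over the 36 pairs, with a median of 0.81. These libraries include DS and VS tissue of the same mice and carry the difference between treatments on which the members were picked, so the correlations describe the libraries and have no test. In 10 mice both DS and VS were measured completely. The DS median was above the VS median in 1 of 5 saline mice and 4 of 5 ethanol mice. Of the saline mice, *Fezf2* and *Neurod6* were higher in DS than in VS in 5 of 5 mice and *Scube1* in 0 of 5, and in the ethanol mice the counts were 5, 4 and 1 of 5. *Neurod1* had the lowest percent of the members in 11 of the 25 striatal libraries and *Emx1* in 5.

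Across 16674 genes with a mean of at least 1 CPM in these 24 libraries, the 10 most like the mean profile of the members were *Vxn* (r = 0.97), *Cck* (0.96), *Nptx1* (0.95), *Ccn3* (0.94), *Slc30a3* (0.93), *Prss12* (0.93), *Nxph3* (0.92), *Smim43* (0.92), *Sel1l3* (0.92) and *Tmem178* (0.91). That profile carries the treatment difference on which the members were picked. Treatment differences of genes at either end of the ranking therefore follow from it and are no separate result. *Cck*, which encodes the neuropeptide cholecystokinin, averaged 53.8 CPM in acute saline and 10.0 CPM in acute ethanol DS, and 254 CPM in the saline cortex. *Slc30a3*, the vesicular zinc transporter of glutamatergic terminals, averaged 10.4 and 1.34 CPM in the same DS groups and 114 CPM in the saline cortex. *Nxph3* differed from these in that its mean in saline DS (19.7 and 27.0 CPM, acute and chronic) was above its mean in the saline cortex (11.8 CPM). The 5 genes with the lowest r were *Abat* (-0.89), *Nt5c2* (-0.83), *Dpp6* (-0.82), *Capn2* (-0.82) and *Nrsn2* (-0.80). *Abat*, which encodes GABA transaminase, averaged 415 CPM in acute saline and 547 CPM in acute ethanol DS and 218 CPM in the saline cortex.

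Other genes of excitatory neurons were read from lists that hold no member. In chronic DS and chronic VS edgeR called 0 genes of all those tested, so that the 0 calls of each list there are no result about the list. Of 7 pan-pallial genes, which include *Lhx2*, *Emx2*, *Nrn1* and *Bhlhe22*, edgeR called 0 in chronic DS and 0 in chronic VS, with median log2 fold changes of -1.79 and -1.42. Their median percent of the saline cortex was 24.8 to 27.4% in chronic saline and 1.22 to 8.09% in chronic ethanol DS, and 9.86 to 27.1% and 1.43 to 3.38% in VS. *Bhlhe22* had log2 fold changes of -2.56 in chronic DS and -1.42 in chronic VS (edgeR FDR 0.409 and 0.358) and *Nrn1* of -1.98 and -1.78 (FDR 0.520 and 0.365), whereas *Lhx2* (-0.14 and -0.08) and *Emx2* (0.08 and -0.11) were near 0. The list of 5 upper-layer genes had medians of 0.20 and 0.03 in chronic DS and VS and 0 calls in each. Of 8 deep-layer genes 0 were called (medians -0.76 and -0.21), and *Cplx3* had the lowest value in both regions (log2 fold change -2.45 ± 0.37 in DS and -3.34 in VS, edgeR FDR 0.172 and 0.410). The 4 claustrum and endopiriform genes had medians of -0.14 and -0.87 and 0 calls, with *Nr4a2* at -1.05 ± 1.00 in DS and -3.54 ± 0.78 in VS (FDR 0.844 and 0.238).

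Other genes of the families of *Rtn4rl2* and *Scube1* had mixed values in chronic DS and VS, some near 0 and some lower with ethanol. Among 8 genes of the Nogo receptor family and its partners, 0 were called in chronic DS and VS (medians -0.24 and -0.19). *Rtn4r*, which encodes the Nogo receptor itself, was at -1.63 ± 0.44 in DS and -1.58 ± 0.45 in VS (edgeR FDR 0.465 and 0.337). *Rtn4*, its ligand Nogo, was at 0.02 and -0.17 (FDR 0.976 and 0.529). Of the 2 other SCUBE genes 0 were called, with medians of -0.16 and -0.78. *Scube3* was at 0.29 ± 0.18 in chronic DS and 0.17 ± 0.18 in chronic VS (edgeR FDR 0.742 and 0.803), and *Scube2* at -0.61 ± 1.19 and -1.72 ± 0.82 (FDR 0.935 and 0.529).

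The summed level of the 12 striatal projection neuron genes was 8250 to 9950 CPM in acute saline and 11407 to 11608 CPM in acute ethanol DS. In acute DS edgeR called 10 of these 12 genes as higher, beside 2.05% of all genes, and 3.1% of all genes as lower. It was 6399 to 8846 CPM in chronic saline and 8021 to 12980 CPM in chronic ethanol DS, with 0 of 12 called and a median log2 fold change of 0.44. In VS the sums were 4621 to 7095 against 4061 to 8566 CPM (acute) and 4742 to 8066 against 7738 to 8112 CPM (chronic), with 0 of 12 called and medians of 0.20 and 0.26. In chronic saline replicate 5 of VS, where the members were lowest among the saline libraries, the sum was 4742 CPM, also the lowest of its group. All 12 genes were above 0 in each of these libraries. The 7 choroid plexus genes had sums from 5.86 to 7183 CPM within DS and from 9.68 to 2845 CPM within VS, with 0 of 7 and 0 of 4 tested genes called in chronic DS and VS. Their largest sums were in chronic saline replicate 6 (7183 CPM in DS and 2845 CPM in VS). The part of either list in the levels of the members was not tested. Of the other lists in acute DS, all of them chosen with these data known, edgeR called 5 of 7 pan-pallial, 1 of 5 upper-layer, 2 of 8 deep-layer, 2 of 4 claustrum and 2 of 8 Nogo receptor family genes as lower, and 0 of 2 SCUBE genes. It called 2 of 4 CA pyramidal genes, 1 of 4 tested dentate granule genes and 1 of 7 choroid plexus genes as higher. Of 8 interneuron genes 1 was called as higher and 3 as lower, of 6 astrocyte genes 1 as lower, and of the thalamic, myelin and septum lists 0.

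**Figure D4:**
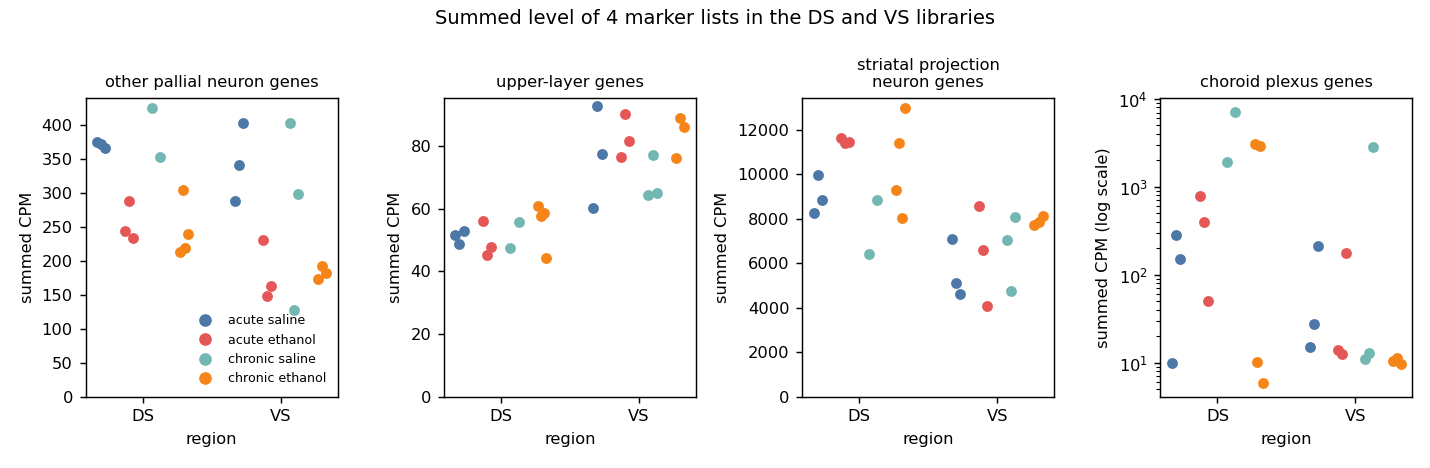
Summed CPM of 4 lists of marker genes in each complete DS and VS library, colored by group, with a log axis for the choroid plexus genes alone. The sums of the other pallial genes separate saline from ethanol libraries in DS (353 to 424 against 213 to 304 CPM), the upper-layer sums of DS lie between 44.2 and 61.0 CPM in all groups. In VS the pallial sum of chronic saline replicate 5 (128 CPM) lay under every ethanol library (148 to 230 CPM), and the choroid plexus sums of both regions range from 5.86 to 7183 CPM.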

How the data were processed

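RNA was sequenced from 62 bulk tissue libraries of 5 brain regions. The authors deposited raw counts per gene, made by trimming with cutadapt (5.0), aligning with STAR (2.7.10a) to GRCm39 and counting with featureCounts (2.0.6) in reverse-stranded mode for all libraries, although the cortex and dHPC kit keeps no strand. In the counts from 1 to 20, 64.9 to 72.2% (cortex and dHPC) and 85.4 to 91.9% (other regions) were even, so 1 fragment may have been counted as 2.

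Counts were analyzed here with edgeR 4.0.16 (quasi-likelihood test, TMM scaling, a filter that required a count of 5 or more in 2 or more libraries of either group, Benjamini-Hochberg FDR under 0.1 over all genes tested), each ethanol group against its saline group, with the incomplete DS library left out. Alternatives were DESeq2 1.42.0, edgeR scaled by the size factors of DESeq2, omission of the low-count filter, a fit over all 4 groups of a region, a replicate block and omission of each library. In chronic DS a further alternative added the incomplete library on the chromosomes complete in it. Library medians and correlations used CPM, with 0.1 added before logs. edgeR was also run on simulated counts with a fixed dispersion and with changes placed in genes above a minimum mean count. That run does not cover members with counts near 0 or with a wide spread between libraries. The members, the lists and the genes named were chosen with earlier results of these data known. The named genes are the members, the 10 most and 5 least like their mean profile, and list genes chosen after their values were seen. Same-numbered samples did not deviate together (r from -0.161 to 0.0646), so replicate numbers were not taken as pairs. Values of 1 list gene are not reported here.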

Additional observations from a re-analysis of the deposited data

Results flagged for a closer look

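In chronic ethanol DS, *Rtn4rl2* was at 2.71 CPM in replicate 4, far from the other libraries of the group (0.355 to 0.499 CPM). Chance sets a sample apart in about 1 of 20 such checks, and 20 were made, over the members and the library median in the 2 groups of 4 libraries. The same library had the highest median of the 9 genes in its group (7.16%).

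Some members were higher with ethanol in every cortex or hippocampal library of a comparison and lower in every DS and VS library of the same paradigm. These differences between regions were not tested, and values are log2 ratios of mean CPM, ethanol over saline. The members were picked on their fall in acute DS and VS, so that side of the acute cases was known in advance. Members without overlap also went the other way, *Neurod1* in the acute cortex (-0.37) and *Slc17a7* (-0.45) and *Neurod2* (-0.38) in chronic vHPC. *Neurod1* was higher without overlap in chronic dHPC (0.61), but its chronic DS and VS groups overlapped. The share of all genes without overlap in the cortex and hippocampus was not counted, so these cases are no result about the members. *Neurod6* was at 0.30 in the acute cortex, as was *Fezf2* (0.30). *Emx1* was at 0.68 in acute vHPC, and in chronic vHPC every ethanol library lay on the opposite side of its saline group (-0.24). Its ethanol means in vHPC were alike (11.9 CPM acute and 11.4 CPM chronic). The saline means differed more (7.42 CPM acute and 13.5 CPM chronic). *Scube1* was at 0.45 in acute dHPC. *Rtn4rl2* was at 0.33 in chronic dHPC.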

How the results depend on the processing

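The direction of all 9 genes in chronic DS and VS was kept in every alternative run, and the group means of the library medians moved by less than their SD in all alternatives run for them. Where 1 library was left out, a mean over so few libraries cannot move by its SD, so those alternatives are no test of the group means. Single libraries moved more, and with the vHPC reference the median of chronic ethanol DS replicate 1 was 4.70% in place of 1.60%. The acute comparisons in DS and VS chose the members, so no calls are given for them. Their median log2 fold change over the members was -3.20 in DS (-4.25 to -2.70 with 1 library left out, the lowest without ethanol replicate 4) and -2.95 in VS (-3.80 to -2.61). Counts of called members moved more, and the cause was not tested beyond the settings themselves. With DESeq2 they were 2 in the acute cortex (main value 1), 1 in acute dHPC, 1 in acute vHPC, 5 in chronic DS and 5 in chronic VS (0 in each with edgeR). DESeq2 called 3.69, 1.07, 2.9, 0.776 and 1.79% of all genes in the same order. Without the low-count filter they were 4 in the acute cortex (3.96% of all genes), 4 in chronic vHPC (2.66%), 8 in chronic DS (1.6%) and 8 in chronic VS (1.88%). They were 1 in acute dHPC, where the share of all genes is not given here. With all 4 groups in 1 fit they were 4 in chronic DS (0.556%) and 0 in the acute cortex, whose share is not given here. With 1 library left out they ranged from 0 to 1 in the acute cortex, 0 to 2 in chronic vHPC (2 without ethanol replicate 4), 0 to 2 in chronic DS and 0 to 8 in chronic VS (8 without saline replicate 5). A lone library left in a group was assumed to vary like the other group.

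With a replicate block 3 members were called in the acute cortex, against 1 without it, and *Emx1* in acute dHPC was at -0.0341. The block could be fitted in the cortex and in acute dHPC, since the other comparisons share fewer than 2 replicate numbers.

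Of 760 values for 72 log2 fold changes, 22 (15 fold changes) changed sign, all in the cortex or hippocampus. Leaving out 1 library gave ranges of -0.0941 to 0.0237 for *Neurod2* in the acute cortex, and in the chronic cortex -0.10 to 0.0323 for *Neurod2*, -0.27 to 0.0282 for *Tbr1* and -0.0137 to 0.18 for *Scube1*. In acute dHPC they were -0.13 to 0.10 for *Neurod1*, -0.15 to 0.0059 for *Tbr1* and -0.022 to 0.21 for *Emx1*, and in chronic dHPC -0.35 to 0.64 for *Fezf2* and -0.0742 to 0.21 for *Scube1*. In acute vHPC they were -0.0933 to 0.22 for *Slc17a7*, -0.0365 to 0.28 for *Neurod1*, -0.0721 to 0.37 for *Tbr1* and -0.0316 to 0.93 for *Fezf2*, and in chronic vHPC -0.18 to 0.30 for *Neurod1* and -0.70 to 0.0393 for *Scube1*. In DS and VS single ethanol libraries had 0 counts of *Neurod1*, *Neurod2*, *Emx1* or *Rtn4rl2*, and the part of depth in this was not tested.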
